A study of Mus musculus with 7 samples.

Results

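The matrix proteoglycans described here are 9 genes chosen by name, Dcn, Bgn, Aspn, Lum, Fmod, Prelp, Ogn, Vcan and Hspg2, out of 55401 genes in the count table. The first 7 encode small leucine-rich proteoglycans (SLRPs) and the last 2 encode large matrix proteoglycans. The libraries, 1 per mouse, were made from right lung lobes of 4 mice given bleomycin (BLM) and of 3 mice given bleomycin and then hyperbaric oxygen (BLM+HBO). All were male C57BL/6 mice aged 6 to 8 weeks and weighing 20 to 25 g, and all lungs were taken on day 21 after instillation. HBO is oxygen breathed under pressure, given here at 2.5 ATA for 90 min per day in 14 exposures that began on day 7. The BLM mice spent the same time in the chamber without pressurised oxygen according to their sample records, but were left untreated according to the study's methods. Both groups received bleomycin, a cytotoxic drug that injures the lung and is followed by scarring, so the comparison is between injured lungs and no lung without bleomycin enters it. According to the methods, mice that lost too little weight were not kept. Lobes hold all lung cell types, so fewer cells of a type and less RNA per cell cannot be told apart.

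Proteoglycans are proteins that carry sulfated sugar chains. SLRPs bind collagen fibrils through their leucine-rich repeats, limit how the fibrils thicken, and hold growth factors in the matrix. Versican is a large chondroitin sulfate proteoglycan that binds hyaluronan in loose, newly laid matrix, and perlecan is the heparan sulfate proteoglycan of basement membranes. In scarred lung these proteins are known mainly as products of fibroblasts and related mesenchymal cells.

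Lum, Vcan and Dcn mRNA was lower in the BLM+HBO mice, by 2.12-fold, 2.09-fold and 1.66-fold. Here a gene was called when edgeR's quasi-likelihood test gave P below 0.05 before adjustment and the levels differed by more than 1.5-fold, the limits used in the study. All 9 genes had enough reads to be tested, with counts from 149 to 42272 per mouse. By this rule 3 of 9 were called lower and 0 of 9 higher, beside 2.89% of the 17465 tested genes called lower and 3.40% called higher. After Benjamini-Hochberg adjustment over all tested genes edgeR called 0 of 9, beside 0% of all genes, and the lowest adjusted P of any gene was 0.423. Before adjustment, P was below 0.05 for 4 of the 9 genes (Lum, Vcan, Dcn and Aspn) and 1861 genes in all. The log2 fold change was negative for 7 of 9 and positive for 2 of 9. Its median was -0.51, against 0.01 over all tested genes, of which 48.8% were negative. Levels below are CPM, read counts relative to the library total after TMM scaling, given in the order of the mouse numbers. The edgeR P-values set the group difference against variation between these mice, estimated with information shared across genes.

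**Figure D1:**
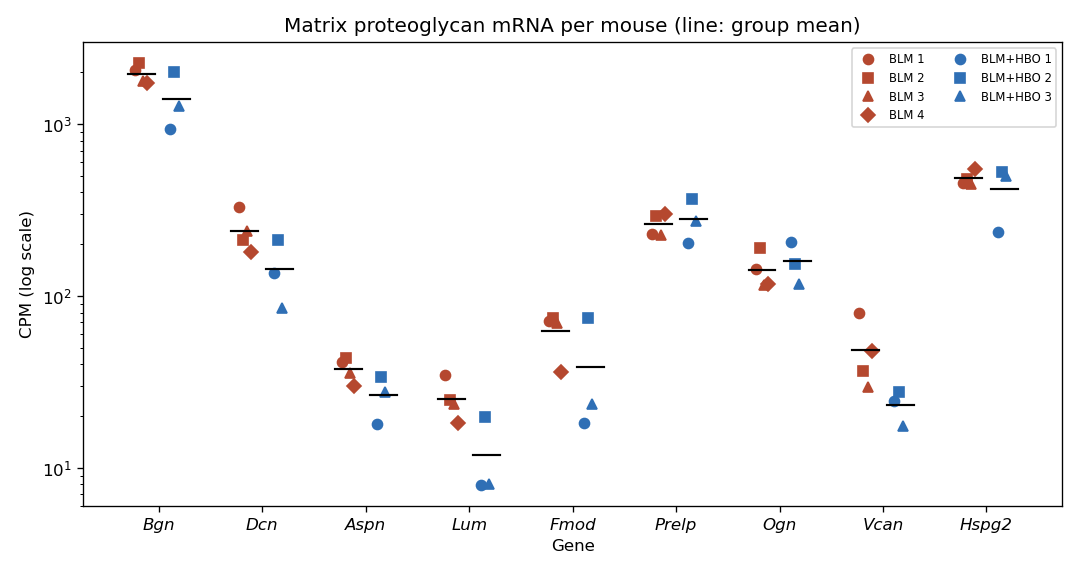
CPM on a log axis for each gene and mouse, with BLM mice in red, BLM+HBO mice in blue, symbols for the mouse number and a line at each group mean. Vcan is the gene whose groups do not overlap, with BLM mice from 29.5 to 79.7 CPM and BLM+HBO mice from 17.4 to 27.6 CPM.

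Several of these genes are neighbours in the mouse genome (GRCm38, coordinates as in the count table). Dcn (ENSMUSG00000019929.16) spans chr10:97479609-97518143 and Lum (ENSMUSG00000036446.5) spans chr10:97565128-97572703, both on the plus strand, with a gap of 46.98 kb and no protein-coding gene between them. Aspn (ENSMUSG00000021388.14, chr13:49544443-49567565) and Ogn (ENSMUSG00000021390.6, chr13:49608046-49624501) lie on the plus strand 40.48 kb apart, with Omd, another SLRP gene, between them. Prelp (ENSMUSG00000041577.5, chr1:133910304-133921414, minus strand) and Fmod (ENSMUSG00000041559.7, chr1:134037254-134048277, plus strand) lie 115.8 kb apart with no protein-coding gene between them. Bgn (ENSMUSG00000031375.17) spans chrX:73483602-73495933 on the plus strand. Vcan (ENSMUSG00000021614.16) spans chr13:89655312-89742509 on the minus strand, and Hspg2 (ENSMUSG00000028763.18) spans chr4:137468769-137570630 on the plus strand.

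The 250 bases before the transcription start are shown for Vcan, which was called lower, and for the neighbours Aspn and Ogn, neither of which was called. They are RefSeq sequences of GRCm38.p6, found for 7 of the 9 genes and not for Lum or Dcn. Capitals mark motif matches on either strand, some of which overlap or touch. The motifs were TATAAA (the TATA box), ACGTG and TGANTCA (the AP-1 site). Also searched were CACCC (a box bound by Kruppel-like factors) and GGGCGG (the GC box bound by Sp1). ACGTG is a form of the core of hypoxia response elements, and its other form, GCGTG, was not searched. The Vcan stretch is chr13:89742513-89742762 (minus strand), the Aspn stretch chr13:49544193-49544442 (plus strand) and the Ogn stretch chr13:49607765-49608014 (plus strand).
Vcan: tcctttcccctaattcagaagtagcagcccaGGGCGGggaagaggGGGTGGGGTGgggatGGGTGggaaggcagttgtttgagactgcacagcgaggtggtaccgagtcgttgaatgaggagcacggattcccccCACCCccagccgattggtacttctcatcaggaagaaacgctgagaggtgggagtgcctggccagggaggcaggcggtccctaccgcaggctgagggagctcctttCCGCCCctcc
Aspn: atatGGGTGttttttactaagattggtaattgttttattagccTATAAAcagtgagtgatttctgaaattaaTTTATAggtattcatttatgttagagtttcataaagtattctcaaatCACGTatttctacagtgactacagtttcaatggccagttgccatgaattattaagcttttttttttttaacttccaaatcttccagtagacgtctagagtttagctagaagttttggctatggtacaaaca
Ogn: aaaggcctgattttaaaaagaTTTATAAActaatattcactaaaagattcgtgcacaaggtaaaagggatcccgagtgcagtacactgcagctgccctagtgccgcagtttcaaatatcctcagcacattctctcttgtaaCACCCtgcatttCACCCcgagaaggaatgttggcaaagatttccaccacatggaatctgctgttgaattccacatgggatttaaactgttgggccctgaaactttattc
The Vcan stretch was 62.4% G and C, that of Ogn 42% and that of Aspn 30%, against a median of 52.4% over 32851 promoters. GGGCGG was found in 3 of the 7 promoters (Bgn, Hspg2 and Vcan) and in 32.7% of all promoters. TATAAA was found in 2 of 7 (Aspn and Ogn) and in 12.4% of all. ACGTG was found in 1 of 7 (Aspn) and in 16.6% of all, TGANTCA in 0 of 7 and 6.75% of all, and CACCC in 7 of 7 and 52.0% of all. These matches describe letters in a window, and no binding was measured.

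Among the class I SLRPs, Dcn encodes decorin, which coats collagen fibrils and binds TGF-beta. Its level was 330, 212, 238 and 179 CPM in the BLM mice and 136, 211 and 85.2 CPM in the BLM+HBO mice. BLM+HBO 2 lay among the BLM mice, above BLM 4, while the other BLM+HBO mice were below all of them. The means were 240 ± 64.9 (SD, n = 4) and 144 ± 63.3 CPM (SD, n = 3), and the log2 fold change was -0.73 ± 0.30 (SE). The edgeR quasi-likelihood test passed the unadjusted limit, with an adjusted P = 0.446. Dcn was no longer called when any of 4 mice was left out: the log2 fold change was then -0.54 (BLM 1 left out), -0.74 (BLM 3), -0.70 (BLM+HBO 1) and -0.47 (BLM+HBO 3). Without BLM+HBO 2 it was -1.12 and called.

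Bgn encodes biglycan, a close relative of decorin that also signals to immune cells when released from matrix. It was counted at 2062, 2253, 1790 and 1739 CPM in the BLM mice and at 930, 2023 and 1271 CPM in the BLM+HBO mice. BLM+HBO 2 again lay within the BLM range and the other BLM+HBO mice below it. The difference of -0.48 ± 0.25 (log2, SE) was not called (edgeR adjusted P = 0.516), and its 95% interval ran from -1.03 to 0.07. Without BLM+HBO 2 it was -0.84 and called, and without BLM+HBO 1 it was -0.25 and not called. Aspn encodes asporin, an SLRP that lacks the usual sugar chains and binds TGF-beta. Its level was 41, 43.6, 35.6 and 29.7 CPM in the BLM mice and 17.9, 33.5 and 27.7 CPM in the BLM+HBO mice, where BLM+HBO 2 was above BLM 4. The log2 fold change of -0.51 ± 0.21 (SE) passed the P limit in edgeR (adjusted P = 0.455) but stayed under the fold limit. Aspn was called without BLM 4 (-0.60) or without BLM+HBO 2 (-0.71). When any of the other 5 mice was left out it missed the P limit too, with -0.29 without BLM+HBO 1.

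Among the class II SLRPs, Lum encodes lumican, a keratan sulfate proteoglycan that spaces collagen fibrils. It was at 34.5, 24.7, 23.6 and 18.1 CPM in the BLM mice and at 7.93, 19.7 and 8.06 CPM in the BLM+HBO mice. BLM+HBO 1 and BLM+HBO 3 were far below every BLM mouse, and BLM+HBO 2 was slightly above BLM 4, so the groups overlapped. The means were 25.2 ± 6.82 (SD, n = 4) and 11.9 ± 6.77 CPM (SD, n = 3). The log2 fold change was -1.08 ± 0.34 (SE; edgeR adjusted P = 0.423), with a 95% interval from -1.85 to -0.31. Lum was called in all 16 alternative fits, which gave -1.66 to -0.86 with adjusted P from 0.0149 to 0.802, but not at a P limit of 0.01. Without BLM+HBO 2 it was -1.66, and its adjusted P was 0.0308 by edgeR.

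Fmod encodes fibromodulin, which binds collagen at the same site as lumican and is known for its part in fibril cross-linking. It was at 71.1, 74.4, 69.9 and 36 CPM in the BLM mice and at 18.1, 74.3 and 23.5 CPM in the BLM+HBO mice. BLM+HBO 2 was level with the highest BLM mouse, BLM 4 stood below the other BLM mice, and BLM+HBO 1 and BLM+HBO 3 were below all BLM mice. The difference was -0.70 ± 0.45 (log2, SE) and was not called (edgeR adjusted P = 0.606). Without BLM+HBO 2 it was -1.59 (edgeR adjusted P = 0.0391), without BLM+HBO 1 -0.37 and without BLM+HBO 3 -0.44, the last pair not called.

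Prelp encodes prolargin, which links basement membranes to collagen. Its level was 230, 290, 225 and 301 CPM in the BLM mice and 204, 368 and 273 CPM in the BLM+HBO mice, with the lowest and the highest mouse both in the BLM+HBO group. For Prelp the log2 fold change was 0.11 ± 0.20 (SE; edgeR adjusted P = 0.880), with a 95% interval from -0.34 to 0.55, and it was -0.13 without BLM+HBO 2. Of the Prelp exon bases 350 (9.68%) overlap the antisense gene Gm15851, and the counting did not use strand. The class III SLRP Ogn encodes osteoglycin, or mimecan, known from bone and connective tissue. It was at 144, 190, 116 and 118 CPM in the BLM mice and at 206, 154 and 118 CPM in the BLM+HBO mice. Its highest level of all mice was in BLM+HBO 1, where most of the other genes were lowest. For Ogn the log2 fold change was 0.17 ± 0.22 (SE; edgeR adjusted P = 0.818), with a 95% interval from -0.32 to 0.66, and it was -0.06 without BLM+HBO 1.

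Of the large proteoglycans, Vcan was at 79.7, 36.4, 29.5 and 47.9 CPM in the BLM mice and at 24.3, 27.6 and 17.4 CPM in the BLM+HBO mice. Every BLM+HBO mouse was below every BLM mouse, by a narrow margin between BLM 3 and BLM+HBO 2, and BLM 1 stood high. Vcan was 1 of 9 genes with such a gap, beside 4.72% of all tested genes lower without overlap. The means were 48.4 ± 22.2 (SD, n = 4) and 23.1 ± 5.19 CPM (SD, n = 3). The log2 fold change was -1.07 ± 0.32 (SE; edgeR adjusted P = 0.423), with a 95% interval from -1.78 to -0.35. It was called in all 16 alternative fits, which gave -1.24 to -0.72 with adjusted P from 0.00671 to 0.802, the smallest change being without BLM 1. DESeq2 on the genes tested by edgeR gave an adjusted P of 0.0703 for Vcan and 0.0966 for Lum, so 0 of 9 passed, beside 0.462% of all genes lower. A second DESeq2 run on all genes with a read, added after the first had been seen, gave 0.0483 for Vcan and 0.0733 for Lum, beside 0.538% of all genes lower.

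Hspg2, which encodes perlecan, was at 457, 476, 447 and 551 CPM in the BLM mice and at 235, 524 and 500 CPM in the BLM+HBO mice. BLM+HBO 1 was low and the other BLM+HBO mice were within the BLM range. For Hspg2 the log2 fold change was -0.20 ± 0.25 (SE; edgeR adjusted P = 0.799), with a 95% interval from -0.75 to 0.35, and it was 0.08 without BLM+HBO 1.

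**Figure D2:**
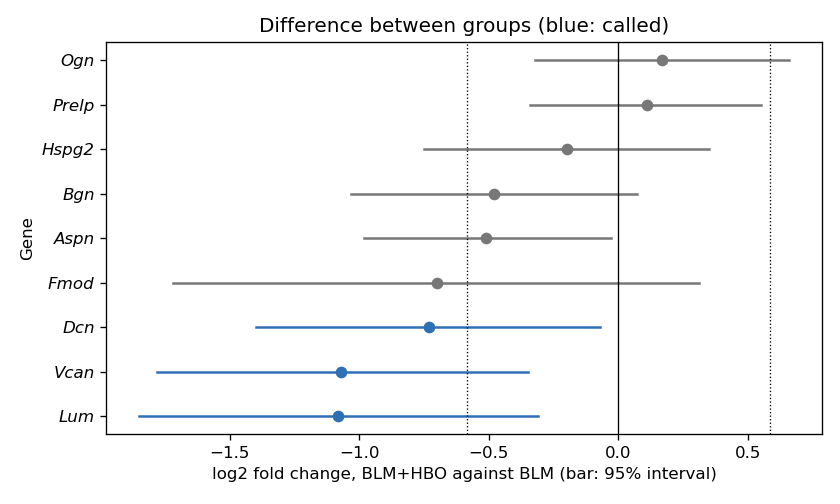
Log2 fold change of BLM+HBO against BLM for each gene (point) with its 95% interval from the edgeR fit (bar), called genes in blue, and dotted lines at the fold limit of 1.5. The intervals of Lum (-1.85 to -0.31), Vcan (-1.78 to -0.35), Dcn (-1.40 to -0.07) and Aspn (-0.98 to -0.03) lie below 0.

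The BLM+HBO mice differed among themselves. Divided by the BLM mean of each gene, the median level over the 9 genes was 0.487 in BLM+HBO 1, 1.03 in BLM+HBO 2 and 0.648 in BLM+HBO 3. In the BLM mice it was 1.09, 1.11, 0.926 and 0.832. BLM+HBO 1 had the lowest level of all mice for 6 of the 9 genes and BLM+HBO 3 for 2 of them. BLM+HBO 2 was the highest of its group for 8 of 9, the exception being Ogn. Without BLM+HBO 2 the number of genes called lower was 6 in place of 3 (Dcn, Bgn, Aspn, Lum, Fmod and Vcan), and 2 of them (Lum and Fmod) had an edgeR adjusted P below 0.05. In that fit 5.41% of all tested genes were called lower and 1.49% passed the adjusted limit. Leaving out BLM+HBO 1 or BLM+HBO 3 instead left 2 of 9 called lower (Lum and Vcan), beside 1.76% and 2.07% of all genes.

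**Figure D3:**
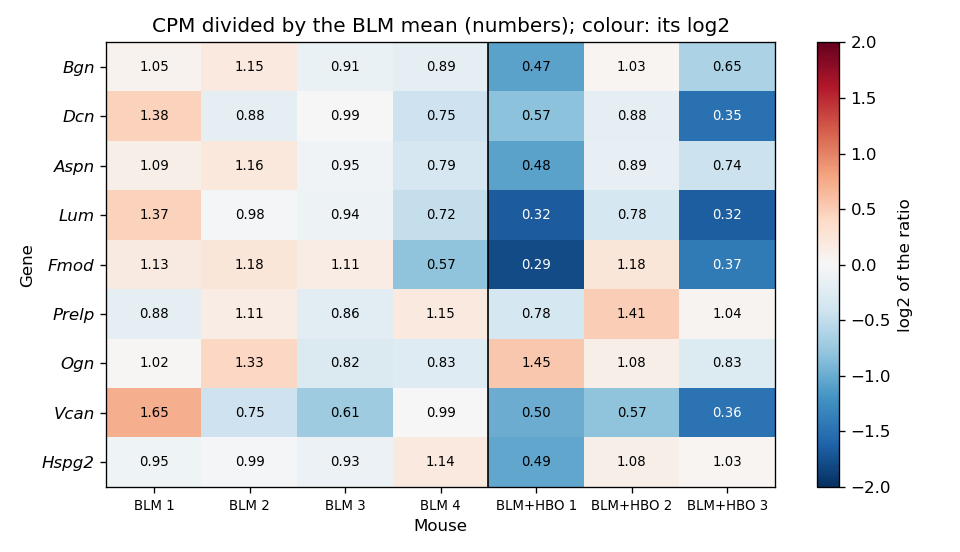
Level of each gene in each mouse divided by the gene's mean in the BLM mice, printed in each cell, with blue for lower and red for higher. BLM+HBO 2 resembles the BLM mice for most genes (median 1.03), BLM+HBO 1 is low (median 0.487) except for Ogn at 1.45, and BLM+HBO 3 is the lowest mouse for Dcn and Vcan.

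Levels of different genes are compared per length, as TPM, which divides counts by exon length before scaling to the library. In the BLM mice Bgn was far above the rest at 977 ± 120 TPM (SD, n = 4). Prelp (220 ± 36.2), Ogn (168 ± 38.6), Dcn (125 ± 37) and Hspg2 (99.8 ± 12.6) followed, and between neighbours in this order the mean ± SD ranges overlapped. Fmod (57.5 ± 15.8), Aspn (48.3 ± 7.78) and Lum (31.4 ± 9.23) came next, Fmod and Aspn with overlapping mean ± SD ranges and Aspn and Lum with ranges that barely touched, and Vcan was lowest at 10.3 ± 5.12 TPM. Of the summed SLRP TPM, Bgn made up 60.0 ± 0.392% in the BLM mice and 53.6 ± 6.34% in the BLM+HBO mice (SD, n = 4 and 3). The share of Ogn was 10.2 ± 1.26% and 15.8 ± 7.53%, the last with 24.4% in BLM+HBO 1. Lum made up 1.91 ± 0.419% and 1.10 ± 0.27%. These shares were not tested.

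Within-mouse ratios compare members with shared roles or neighbouring genes and do not depend on library scaling. There were 6 such log2 ratios of counts per kb, each tested by a two-sided exact permutation test over the 35 ways to assign the mice, whose smallest P is 0.0286, with adjustment over the 6. Lum/Dcn was -2.01, -1.85, -2.08 and -2.06 in the BLM mice and -2.85, -2.17 and -2.15 in the BLM+HBO mice. All BLM+HBO mice were below all BLM mice, with a mean difference of -0.39 (exact permutation P = 0.0286, adjusted P = 0.171), although the difference was -0.16 without BLM+HBO 1. Aspn/Ogn differed by -0.70 (exact permutation P = 0.0571, adjusted P = 0.171). It was at -3.40 in BLM+HBO 1, and the difference was -0.24 without that mouse. Fmod/Prelp differed by -1.01 (exact permutation P = 0.114), Vcan/Hspg2 by -0.70 (P = 0.257), Lum/Fmod by -0.25 (P = 0.429) and Bgn/Dcn by 0.25 (P = 0.571). When each mouse was left out Vcan/Hspg2 ran from -1.12 (BLM+HBO 1) to -0.34 (BLM+HBO 3) and Lum/Fmod from -0.43 (BLM+HBO 1) to -0.07 (BLM+HBO 2). Bgn/Dcn ran from 0.52 (BLM+HBO 1) to -0.05 (BLM+HBO 3), so its direction turned. None of the 6 passed after adjustment.

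**Figure D4:**
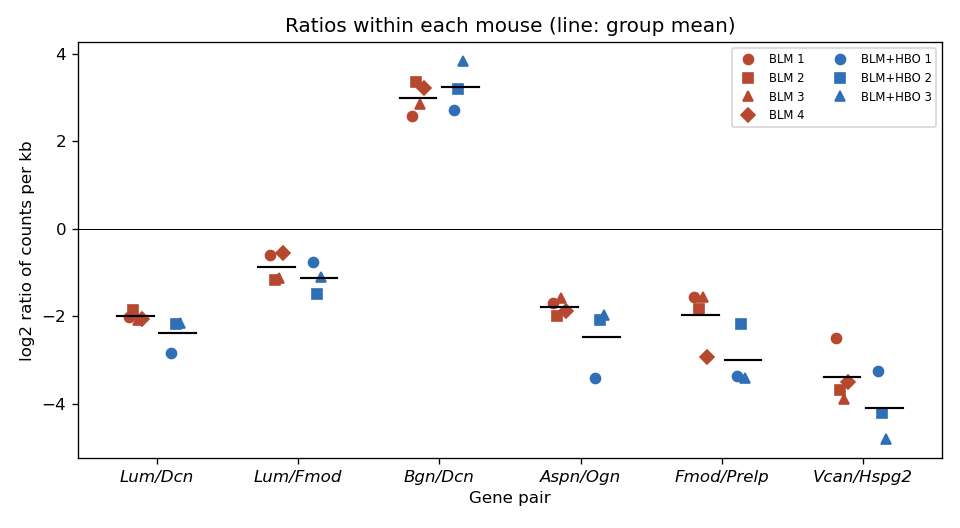
Log2 ratio of counts per kb for 6 gene pairs in each mouse, BLM in red and BLM+HBO in blue, symbols for the mouse number and a line at each group mean. The groups separate for Lum/Dcn (BLM+HBO minus BLM, -0.39), and BLM+HBO 1 is far below the others for Aspn/Ogn at -3.40.

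To see which genes varied together between mice of a group, the group mean of log2 CPM was subtracted and Pearson's r taken over the 7 mice, as a description. Of the 36 pairs of members 30 had a positive r, with a median of 0.45 and a range from -0.62 (Ogn and Hspg2) to 0.93 (Lum and Fmod). For the neighbouring pairs r was 0.88 (Lum and Dcn), 0.54 (Fmod and Prelp) and -0.09 (Aspn and Ogn). Bgn and Aspn, on different chromosomes, had an r of 0.92. Among 12572 genes with a mean of at least 5 CPM, Gpr176, Nasp, Rab3il1, Col28a1 and Prrx1 were most like Lum (r from 0.98 to 0.99). Sox5, Tmem87b, Mief1, Rsu1 and Tlr1 were most like Vcan (r of 0.99, and 0.97 to 0.98 without BLM 1). All these values come from the same 7 libraries.

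The lists of other proteoglycan genes are given by their edgeR calls. With all mice, 2.89% of all tested genes were called lower and 3.40% higher, the shares to set beside the counts in these and the later lists. Among 8 tested of 10 other SLRP genes 0 were called and the median log2 fold change was 0.38, the smallest P being that of Ecm2 (0.44, adjusted P = 0.438 by edgeR). Of the other hyalectans and link proteins, which join hyaluronan to versican, 3 of 7 were tested and 0 called, with Hapln1, at -0.74, having the smallest P. Of the other basement membrane and secreted proteoglycans 7 of 9 were tested and 0 called (median -0.11). Esm1 had the smallest P and was the 1 gene with a positive value, at 0.52, while 6 were negative, down to Prg4 at -1.20. Of the cell surface proteoglycans 12 of 13 were tested and 0 called (median -0.22), with Gpc4, a glypican, at -0.52 (edgeR adjusted P = 0.423). On the same genes DESeq2 called 1 basement membrane or secreted gene lower, and limma-trend called 3 of them and 1 cell surface gene lower. Without BLM+HBO 2 edgeR called 3 lower and 1 higher in the former list, 3 lower in the cell surface list and 1 lower among the other SLRP genes. Without BLM 3 it called 1 of the other hyalectans and link proteins lower, and 1 gene higher among the other SLRP genes and 1 in the basement membrane list. Without BLM+HBO 3 it called 1 other SLRP gene higher.

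The enzymes that build the sugar chains are given in the same way, again beside 2.89% of all tested genes called lower and 3.40% called higher. For the linker and chondroitin or dermatan sulfate 21 of 22 genes were tested and 0 called (median -0.13), with Chpf2 at -0.37 at the smallest P. DESeq2 called 2 of these genes lower and limma-trend 1, and edgeR called 2 with BLM 3 left out, 1 with BLM 4 left out and 3 with BLM+HBO 2 left out. For heparan sulfate 14 of 18 were tested and 0 called (median -0.03), with the polymerase gene Ext1 at -0.49 at the smallest P, and 1 was called higher without BLM 4 and 1 lower without BLM+HBO 2. For keratan sulfate, the chain of lumican and fibromodulin, 1 of 8 was called lower (median -0.14). That was Chst5, a sulfotransferase gene, at 6.10 ± 0.412 CPM in the BLM mice and 3.81 ± 0.636 CPM in the BLM+HBO mice (log2 fold change -0.68 ± 0.21, edgeR adjusted P = 0.423). The call was lost without BLM+HBO 1.

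Of 15 genes for proteoglycan cleavage and sulfate editing 2 were called lower (median -0.24), both without overlap. Adamts4, a protease that cleaves versican and aggrecan, was at 47.2, 34.5, 24.2 and 48.4 CPM in the BLM mice and at 1.92, 22.5 and 11.1 CPM in the BLM+HBO mice (log2 fold change -1.70 ± 0.59, edgeR adjusted P = 0.423). Mmp14, a membrane-bound matrix metalloproteinase, was at 436 ± 41.9 CPM (SD, n = 4) and 247 ± 128 CPM (SD, n = 3), with a log2 fold change of -0.82 (edgeR adjusted P = 0.429). Of this list 0 were called lower without BLM+HBO 3, 1 without BLM+HBO 1 and 5 without BLM+HBO 2. Without BLM 2, and also without BLM+HBO 3, 1 gene was called higher. Of 8 genes for collagens that SLRPs bind 7 were called lower (median -0.87). These were Col1a1 (-1.20), Col1a2 (-0.98), Col3a1 (-0.73), Col5a1 (-1.09), Col5a2 (-1.03), Col6a1 (-0.62) and Col6a2 (-0.74). With robust empirical Bayes 4 collagen genes were called. The number fell to 1 without BLM 1, BLM+HBO 1 or BLM+HBO 3, to 2 without BLM 2, and was 8 without BLM+HBO 2. None of these lists had a gene at an edgeR adjusted P below 0.05.

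Markers of several cell types moved with the groups, and their part in the results was not tested. Summed CPM over 6 myofibroblast markers ran from 1718 to 2439 in the BLM mice and from 695 to 1698 in the BLM+HBO mice, with 3 of 6 called lower (Acta2, Cthrc1 and Tnc). Within the BLM+HBO group their sum was lowest in BLM+HBO 1 (695), then BLM+HBO 3 (1131), and highest in BLM+HBO 2 (1698). The median relative level of the 9 proteoglycan genes had this order, although Dcn and Vcan were lowest in BLM+HBO 3 and Ogn was highest in BLM+HBO 1. The order was not particular to myofibroblast markers. It was also that of the macrophage markers (347, 404 and 679), the collagen genes (2310, 4373 and 8077) and the smooth muscle and chondrocyte markers. The remaining marker lists had other orders. The number of myofibroblast markers called was 1 without BLM 1 or without BLM+HBO 3. The 10 fibroblast markers summed to 1361 to 2402 CPM and 2072 to 2919 CPM, with 2 of 10 called higher (Inmt and Tcf21) and 0 lower. The log2 fold change was negative for 2 of 10, Pdgfra (-0.52) and Mfap5 (-0.31). The number called higher was 0 without BLM+HBO 1, 1 without BLM 1 or BLM 3, and 3 without BLM+HBO 2. Without BLM 3, and also without BLM+HBO 2, 1 fibroblast marker was called lower. The 5 mesothelial markers summed to 422 to 715 CPM and 126 to 488 CPM, with 2 of 5 called lower (Msln and Wt1), and 0 of 5 without BLM 1, BLM+HBO 1 or BLM+HBO 3. The 5 macrophage markers summed to 698 to 1089 CPM and 347 to 679 CPM, with 4 of 5 called lower (Marco, C1qa, Mrc1 and Adgre1). Smooth muscle markers (311 to 462 and 319 to 421 CPM), endothelial markers (2759 to 3339 and 2781 to 3285 CPM) and alveolar epithelial markers (8979 to 16515 and 11987 to 25488 CPM) had 0 called by edgeR. DESeq2 on the same genes called 1 alveolar epithelial marker higher, and edgeR called 2 higher without BLM+HBO 2. With the replicate block, without BLM 4 and without BLM+HBO 2, 1 smooth muscle marker was called lower. Heart muscle markers summed to 52.1 to 156 CPM and 105 to 557 CPM, with 6 of 7 called higher (Myh6, Actn2, Myl7, Tnnt2, Myl4 and Tnni3). Their sum was 557 in BLM+HBO 1, 456 in BLM+HBO 2 and 105 in BLM+HBO 3, the last within the BLM range. Without BLM+HBO 1 the number called was 3. Chondrocyte markers (5.29 to 9.22 and 4.26 to 10.9 CPM) and adipocyte markers (0.606 to 2.65 and 2.11 to 6.11 CPM) were low, with 2 of 9 and 2 of 4 tested and 0 called.

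Library totals ran from 18436336 to 19002242 counts in the BLM mice and were 18157161, 20632391 and 26365969 in the BLM+HBO mice. The TMM factors ran from 0.964 to 1.036.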

How the data were processed

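The values were raw read counts per gene that the authors made and deposited for 7 mice. Per the submitters' processing notes and the methods, paired reads were aligned to GRCm38 with HISAT2 2.2.0 and counted with featureCounts at default settings, which ignore strand and discard reads with several positions or genes. The table also gave gene coordinates and exon lengths, from which TPM was computed here. Symbols came from GENCODE vM21 (55141 of 55401 genes). Genes were filtered with filterByExpr (minimum count 10, total 15), leaving 17465, and tested in edgeR 4.0.16 (TMM, quasi-likelihood, Benjamini-Hochberg; R 4.3.3), with BLM as reference. Log2 CPM used a prior count of 2. Alternatives included DESeq2 1.42.0, limma-trend 3.58.1, other scaling factors and filters, a replicate block and leaving out each mouse. The scripts were tested on simulated data. Exact permutation tests enumerated every assignment of the mice directly, and SciPy 1.17.1 gave the t quantiles for the intervals.

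The members and gene lists were chosen with earlier results of these data known. All 9 members are named. In pathway lists the called genes are named, or that with the smallest P. Ratios pair members by role or position. In marker lists the summed CPM and the called genes are given. The promoter motifs and their window were chosen after the data were seen, and every motif searched is reported. DESeq2 was first run on the genes edgeR tested, and a run on all genes with a read was added afterwards.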

Additional observations from a re-analysis of the deposited data

Results flagged for a closer look

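In the 4 BLM mice, 16 measures were examined for a sample far from the others, and 2 had a gap to the nearest mouse above 0.829 of the range. Chance gives about 1 in 20. The log2 CPM of Fmod was 6.15, 6.22, 6.13 and 5.17, and the gap below BLM 4 was 0.914 of the range. The total count of BLM 4, 19002242 against 18436336 to 18452895 in the other BLM mice, stood off by 0.971 of the range.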

How the results depend on the processing

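Lum and Vcan kept their call in all 16 refits, and over the 9 genes 129 of the refits left the call and direction as they were. The number of members called lower (3) was 6 with a replicate block (beside 3.36% of all genes), 1 (Vcan) at a P limit of 0.01, and 2 to 6 when each mouse was left out, 6 being without BLM+HBO replicate 2. Members at an adjusted P below 0.05 (0) were 1 with DESeq2 on all genes with a read, an alternative added after seeing the data, 2 (Lum and Vcan) with no filter on low counts, and 0 to 2 when each mouse was left out, 2 being without BLM+HBO replicate 2. The share of all genes at that limit was 0.892%, 1.18% and 1.49% in these fits, against 0% in the reported one. All genes called lower (504) were 863 with no filter (2.62% of the genes then tested), 231 at a fold change above 2, 159 at a P limit of 0.01, and 303 (without BLM 1) to 968 (without BLM+HBO 2) when each mouse was left out, with 314 without BLM+HBO 1. The members' median (-0.51) ran from -0.84 to -0.29. When each mouse was left out Prelp ran from -0.13 to 0.29, Ogn from -0.06 to 0.34 and Hspg2 from -0.40 to 0.08, so their directions reversed. The Lum/Dcn difference was -0.33 on TPM with a pseudocount of 1 (exact permutation P = 0.0571). The replicate block also called Bgn (-0.60), Aspn (-0.64) and Fmod (-1.18), but the labels state no pairing of mice by number. Deviations of same-numbered mice correlated at -0.00797, -0.066 and 0.161, and 1 of 3 numbers matched best with itself. With so few mice these correlations cannot show whether the numbers pair the mice. The cause of these shifts was not tested.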
